A study of Mus musculus with 12 samples.

Results

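Described here are 10 mouse genes that mark fibroblasts and the matrix they lay down: the receptors Pdgfra and Pdgfrb, the surface proteins Fap, Thy1 and Pdpn, the cross-linking enzymes Lox and Loxl2, and the secreted matrix proteins Fn1, Postn and Sparc. They were chosen by symbol, and all 10 were found among the 24054 genes in the files. All 10 passed the filter on low counts, among 14860 genes tested. RNA was sequenced from 12 samples of colon or colon tumour in 3 groups of 4, all labelled with the immunodeficient mouse strain NSG. Normal colon (N) is labelled wild type. The tumours came from engrafted, genetically edited colonic organoids. BT-T tumours carry BrafV600E and are Tgfbr2-/-. BTPRZ-T tumours carry the same 2 alterations and are also Rnf43-/-, Znrf3-/- and p16 Ink4a-/-. Age, the number of edited clones, the genotype of the host cells inside a tumour and whether the 4 samples of a group came from separate animals are not given in the sources used here, so p-values measure the spread between these samples alone.

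Fibroblasts are the main makers of connective tissue in the gut wall. PDGF ligands bind the receptor tyrosine kinases Pdgfra and Pdgfrb, which in the colon mark fibroblasts under the epithelium and, for Pdgfrb, also pericytes around small vessels. Fibronectin, periostin and collagens form fibres outside the cell, and lysyl oxidases join collagen and elastin chains through oxidised lysines, which stiffens the tissue. None of these genes is exclusive to fibroblasts: Thy1 is also made by T cells and neurons, and Pdpn by lymphatic endothelium. In whole tissue, fewer cells of a type and less RNA per cell cannot be told apart.

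Gene reads came to 15732004 to 26052772 per library. Levels are in CPM (counts-per-million of a library's gene reads) after TMM scaling, which adjusts library totals for composition, and each ± after a mean is the SD over 4 libraries. Some libraries stood apart from others of their group. In N replicate 2, 14175 genes had a read and 9.82% of gene reads lay in Rpl and Rps genes, whereas the remaining N libraries had 16152 to 16432 genes and 1.38 to 1.71%. Its levels, relative to the mean of all libraries, changed by -0.79 log2 units per doubling of transcript length. This slope was 0.18 to 0.29 in the remaining N libraries and 0.043 to 0.28 in BT-T. In BTPRZ-T replicates 1 to 4 it was -0.47, -0.10, 0.065 and -0.15. Rpl and Rps genes held 3.158 to 8.02% of gene reads in the BTPRZ-T libraries, above the 1.63 to 2.42% in BT-T. Fits with the length trend removed are given below, and the part of the Rpl and Rps share in the results was not tested. In BTPRZ-T replicates 1 and 4, 14697 and 13450 genes had a read, and in replicates 2 and 3 16438 and 16131. The Y-linked transcript Ddx3y reached 1 CPM in 3 of 4 N, 3 of 4 BT-T and 1 of 4 BTPRZ-T libraries, so the number of libraries with Y-linked RNA differed between groups, and its part in the results was not tested.

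Most of the 10 genes were higher in BT-T tumours than in normal colon, and fewer were in BTPRZ-T tumours. Of the 10 genes, 7 were called higher in BT-T than in N (edgeR quasi-likelihood test, Benjamini-Hochberg adjusted p under 0.05 over all genes tested): Lox, Thy1, Fn1, Sparc, Pdgfrb, Loxl2 and Postn. Of all genes tested, 5.67% were called higher in that comparison. In BTPRZ-T, 3 of the 10 were called higher than in N, namely Lox, Thy1 and Loxl2, beside 5.66% of all genes. No member was called lower than in N, beside 2.9% of all genes in BT-T and 6.18% in BTPRZ-T. Between the tumour groups no member was called, beside 0.599% of all genes called lower and 0.155% called higher in BTPRZ-T. The fitted change of all 10 was nonetheless negative there, which is a description, since the members share their libraries. The median log2 fold change of the members was 1.93 in BT-T against N, 1.05 in BTPRZ-T against N and -0.89 in BTPRZ-T against BT-T, with -0.097, -0.10 and -0.026 over all genes tested. Without N replicate 2 and BTPRZ-T replicates 1 and 4, the counts called higher were 10 and 4 against N, and 10 were called lower in BTPRZ-T than in BT-T. The libraries left out bear on these counts. BTPRZ-T replicate 4 was the highest of its group for 9 members, and N replicate 2 the highest N library for 4 and the lowest for 3. BTPRZ-T keeps only replicates 2 and 3, and replicate 3 was the lowest of its group for 8 members. Far more genes were called in that fit: 16.1% and 18.1% of all genes tested were called higher against N, and 14.8% lower in BTPRZ-T than in BT-T.

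**Figure D1:**
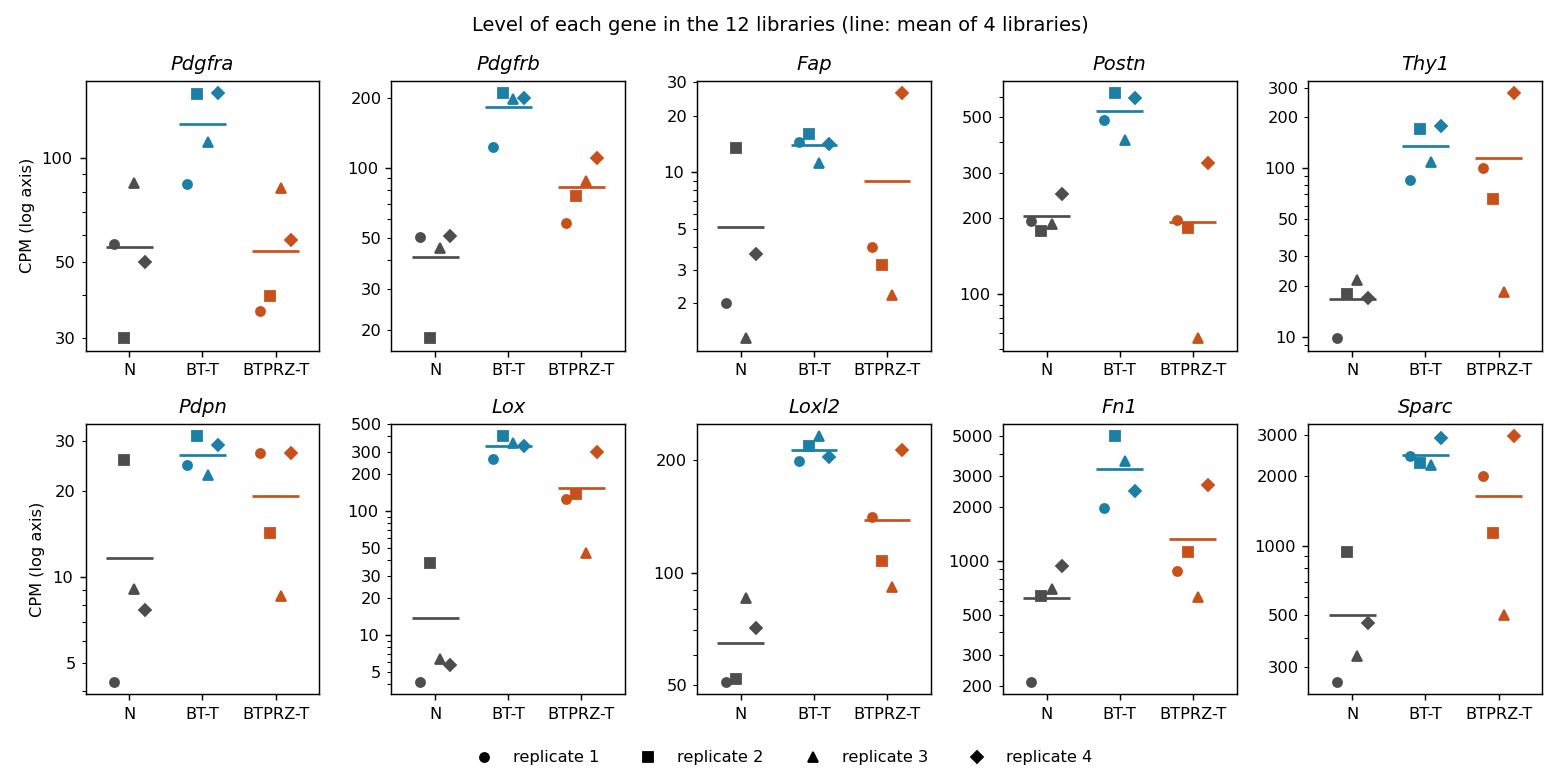
Each panel shows 1 gene; the vertical log axis is its level in CPM, each symbol is 1 library by replicate number and each line is the mean of a group of 4. The BT-T libraries lie close together for most genes, N replicate 2 lies above the other N libraries for Fap, Pdpn, Lox and Sparc, and BTPRZ-T replicate 4 is the highest of its group for 9 of the 10 genes.

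**Figure D2:**
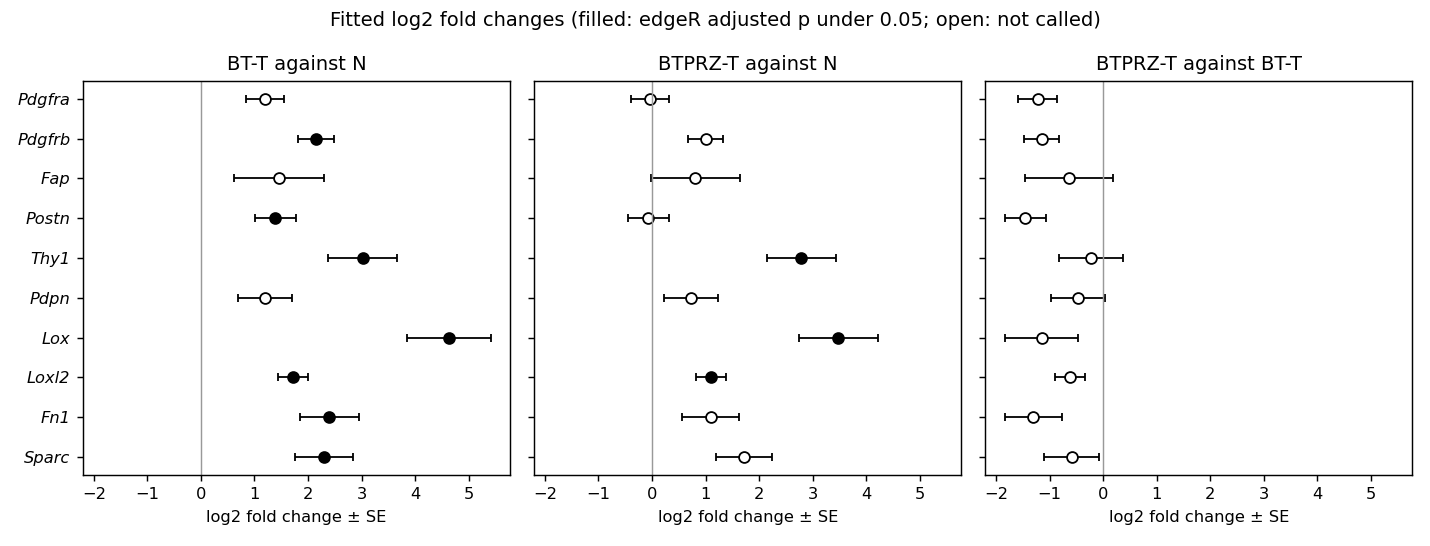
Fitted log2 fold changes of the 10 genes in the 3 comparisons, with bars of 1 standard error; filled symbols have an edgeR adjusted p under 0.05. In BT-T against N 7 symbols are filled, in BTPRZ-T against N 3, and in BTPRZ-T against BT-T none.

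Windows of 250 bases before the gene start were at hand for Postn, Pdpn, Pdgfra and Sparc (RefSeq, GRCm38.p6). The windows below are those of a matrix gene that rose in BT-T and of 2 surface genes that were not called, with a RefSeq start within 41 bases of a GENCODE start and no annotated transcript inside. They lie at chr3:54360857-54361106 on the plus strand (Postn), chr4:143299565-143299814 on the minus strand (Pdpn) and chr5:75152001-75152250 on the plus strand (Pdgfra), and are written 5′ to 3′ along the gene with motif matches in capitals.
Postn: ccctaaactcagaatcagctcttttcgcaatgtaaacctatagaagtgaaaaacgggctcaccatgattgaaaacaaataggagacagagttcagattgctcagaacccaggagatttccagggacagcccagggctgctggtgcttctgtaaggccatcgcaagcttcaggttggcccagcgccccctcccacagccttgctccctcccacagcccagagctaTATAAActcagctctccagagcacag
Pdpn: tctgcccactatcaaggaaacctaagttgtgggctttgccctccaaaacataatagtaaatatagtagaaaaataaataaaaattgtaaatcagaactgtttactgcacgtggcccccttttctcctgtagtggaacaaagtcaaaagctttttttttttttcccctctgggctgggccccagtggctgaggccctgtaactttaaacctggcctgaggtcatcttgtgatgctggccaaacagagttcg
Pdgfra: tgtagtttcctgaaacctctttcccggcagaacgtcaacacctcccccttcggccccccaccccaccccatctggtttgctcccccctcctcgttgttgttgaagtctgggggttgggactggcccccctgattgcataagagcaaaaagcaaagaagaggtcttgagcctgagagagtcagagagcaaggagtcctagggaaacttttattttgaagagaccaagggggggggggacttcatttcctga
The capitals in Postn mark TATAAA, the TATA box letters, beginning 26 bases before the start, and 12.4% of all 32851 RefSeq windows of this length hold these letters on either strand. No match was found in the 3 windows, on either strand, to CCAAT (in 33.8% of all windows), GGGCGG for SP1 (32.7%), TGANTCA for AP-1 (6.75%), GGAATG for TEAD (12.6%), TGTGGT for RUNX (14%) or the CArG box of SRF (1.47%). GC content was 52.0% for Postn, 43.2% for Pdpn and 54.4% for Pdgfra, beside a median of 52.4% over all windows.

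Of the PDGF receptors, Pdgfrb rose in BT-T and Pdgfra was not called in either tumour group. Pdgfrb (chromosome 18, 61045150 to 61085061, plus strand; positions here are from GENCODE M21 on GRCm38), the receptor of fibroblasts and pericytes, stood at 50.4, 18.3, 45.3 and 51.0 CPM in N replicates 1 to 4, at 123, 209.7, 199 and 199 CPM in the BT-T tumours and at 57.9, 75.8, 87.5 and 109.9 CPM in the BTPRZ-T tumours. Every tumour library stood above every N library, and the tumour groups did not overlap either, with BT-T above BTPRZ-T. Pdgfrb rose by 2.15 ± 0.34 on the log2 scale in BT-T (± SE), or 4.43-fold (95% interval 2.67 to 7.37), with an edgeR adjusted p of 0.00248. In BTPRZ-T it stood 1.01 ± 0.33 log2 units above N and was not called (edgeR adjusted p = 0.0674, and 0.0291 without N replicate 2). DESeq2 (0.0232), upper quartile factors (0.0446) and removal of the length trend (0.00253) gave a call there too. Libraries without overlap are common here: 13.4% of all genes had every BT-T library above every N library, and 6.88% every BTPRZ-T library.

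Pdgfra (chromosome 5, 75152292 to 75198215, plus strand), which marks most resident gut fibroblasts and is highest in the cells just under the epithelium, stood at 56.5, 30.0, 85.1 and 50.01 CPM in N replicates 1 to 4, at 84.4, 154, 112 and 155 CPM in the BT-T tumours and at 36.0, 39.9, 82.0 and 58.1 CPM in the BTPRZ-T tumours. The BT-T libraries overlapped N through BT-T replicate 1 and N replicate 3, while BTPRZ-T lay within the range of N. Its log2 fold change was 1.19 ± 0.36 in BT-T (edgeR adjusted p = 0.0590). The value for BTPRZ-T was -0.037 ± 0.35 (adjusted p = 0.967; interval of the fold 0.575 to 1.65), so neither was called. The value in BT-T was called by DESeq2 (adjusted p = 0.0124) and limma voom (0.0448), and by edgeR with upper quartile factors (0.0415), with the length trend removed (0.0328), without N replicate 3 (adjusted p = 0.0378) or without BTPRZ-T replicate 3 (adjusted p = 0.0482). The sign in BTPRZ-T turned with upper quartile factors (0.032), with the trend on transcript length removed (0.082) and without N replicate 3 (0.25), BTPRZ-T replicate 1 (0.11) or BTPRZ-T replicate 2 (0.083).

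The ratio of the receptors does not depend on how libraries are scaled. Per kilobase of the longest transcript, Pdgfrb stood at 1.12, 0.771, 0.670 and 1.28 times Pdgfra in N replicates 1 to 4, 1.84, 1.71, 2.24 and 1.62 times in BT-T and 2.03, 2.39, 1.34 and 2.38 times in BTPRZ-T. Every tumour library had a higher ratio than every N library. The mean log2 ratio was -0.11 ± 0.44 over N libraries (SD of 4 libraries), 0.88 ± 0.20 in BT-T and 0.99 ± 0.39 in BTPRZ-T. The exact two-sided permutation p was 0.0286 for each tumour group against N, the smallest that 4 against 4 allows, and 0.629 between the tumour groups. Adjusted over the 6 ratio tests made, which were chosen after the values were seen, these were 0.0571 and 0.629, above 0.05. Of 4 PDGF ligand genes, 2 rose in BT-T and 3 in BTPRZ-T. Pdgfb, whose product binds both receptors, went from 8.76 ± 3.09 CPM in normal colon to 28.3 ± 7.19 in BT-T (log2 fold change 1.69 ± 0.31, adjusted p = 0.00490, edgeR). Pdgfd, a ligand of Pdgfrb, went from 3.97 ± 1.73 to 13.7 ± 3.14 CPM (1.79 ± 0.36, adjusted p = 0.00860, edgeR), and Pdgfc was not called (1.23 ± 0.53, adjusted p = 0.180, edgeR). Pdgfa was called in BTPRZ-T alone, at 44.6 ± 9.40 CPM in N and 103 ± 30.4 in BTPRZ-T (1.20 ± 0.25, adjusted p = 0.00937, edgeR).

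**Figure D3:**
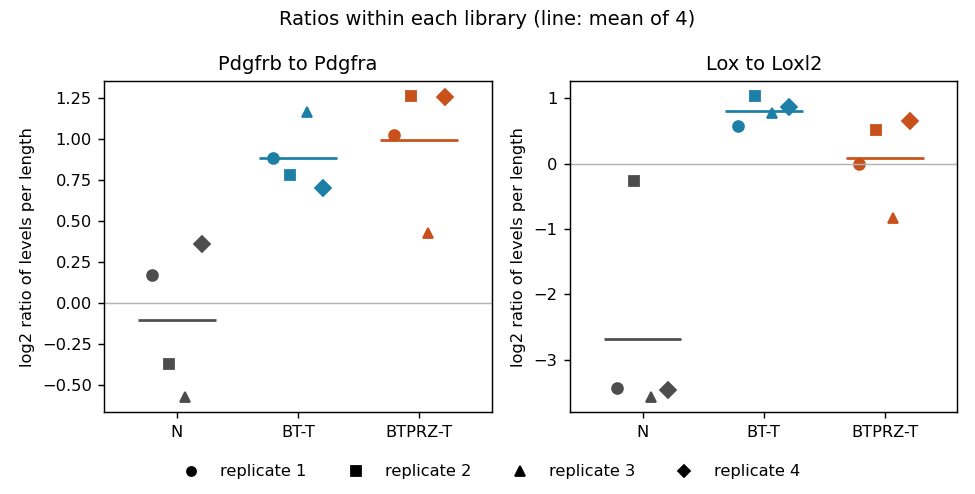
Log2 ratio of levels per transcript length within each library, Pdgfrb to Pdgfra on the left and Lox to Loxl2 on the right; symbols are libraries by replicate number and lines are means of 4. Both ratios are lower in N than in BT-T in every library, and N replicate 2 stands apart for Lox to Loxl2.

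Among the surface proteins, Thy1 rose in both tumour groups, and Fap and Pdpn were not called in either. Thy1 (chromosome 9, 44043384 to 44048579, plus strand), a lipid-anchored glycoprotein of fibroblasts, neurons and T cells, stood at 9.79, 18.1, 21.9 and 17.1 CPM in N replicates 1 to 4, at 84.7, 169.9, 109 and 178 CPM in the BT-T tumours and at 99.7, 65.6, 18.6 and 278 CPM in the BTPRZ-T tumours. BT-T did not overlap N, whereas BTPRZ-T replicate 3 lay within the range of N and BTPRZ-T replicate 4 above every BT-T library. Thy1 rose 8.11-fold in BT-T (95% interval 3.06 to 21.4, log2 fold change 3.02 ± 0.65, edgeR adjusted p = 0.0127) and 6.92-fold in BTPRZ-T (95% interval 2.64 to 18.1, 2.79 ± 0.64, edgeR adjusted p = 0.0148). In BTPRZ-T the log2 fold change was 1.89 without BTPRZ-T replicate 4, and without the 3 libraries that stand apart it was 1.46 and not called (edgeR adjusted p = 0.0569). That call was also lost with limma voom (2.25, adjusted p = 0.0597) and when the fit held no BT-T library (edgeR adjusted p = 0.0617). The T cell markers Cd3g and Cd3d had no read in any library, and Cd3e had 1 read, in N. The summed level of 8 T cell markers was 4.37 to 19.2 CPM in normal colon, 7.49 to 19.3 among BT-T and 6.08 to 10.5 among BTPRZ-T libraries. Most of it came from Cd4 (means of 6.09, 10.9 and 5.74 CPM in N, BT-T and BTPRZ-T) and Lck (5.05, 1.61 and 1.91 CPM). The summed level of 11 enteric neuron and glia markers was 76.1 to 152, 38.2 to 99.3 and 12.1 to 39.1 CPM. Within BTPRZ-T it stood at 38.8, 22.6, 12.1 and 39.1 CPM in replicates 1 to 4, the same order as Thy1. The sums of general fibroblast markers (1326, 897, 509 and 2349 CPM), smooth muscle markers (1600, 813, 258 and 2817 CPM) and macrophage markers had that order too. In BT-T Thy1 and the neuron and glia sum were both highest in replicate 4, but Thy1 was lowest in replicate 1 and the sum in replicate 3. The part of neurons, glia or these other cells in the Thy1 values was not tested.

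Fap (chromosome 2, 62500943 to 62574075, minus strand), a surface serine protease of activated fibroblasts, stood at 2.01, 13.5, 1.30 and 3.64 CPM in N replicates 1 to 4, at 14.5, 16.0, 11.2 and 14.1 CPM in the BT-T tumours and at 4.00, 3.21, 2.203 and 26.3 CPM in the BTPRZ-T tumours. N replicate 2 lay among the BT-T values and BTPRZ-T replicate 4 above them, and the other N and BTPRZ-T libraries all lay below BT-T. The log2 fold change in BT-T was 1.45 ± 0.84 (edgeR adjusted p = 0.314), 2.59 without N replicate 2 (adjusted p = 0.0551) and 2.66 without the 3 libraries that stand apart (adjusted p = 0.000490). In BTPRZ-T it was 0.81 ± 0.83 (edgeR adjusted p = 0.617), and -0.69, below N, without BTPRZ-T replicate 4, or 1.95 without N replicate 2 (adjusted p = 0.0778). At 22 to 199 reads per N library, Fap was the member with the lowest counts.

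Pdpn (chromosome 4, 143267431 to 143299564, minus strand), a mucin-like glycoprotein of activated fibroblasts and lymphatic vessels, stood at 4.32, 25.7, 9.10 and 7.69 CPM in N replicates 1 to 4, at 24.6, 31.1, 22.8 and 28.9 CPM in the BT-T tumours and at 27.2, 14.3, 8.59 and 27.2 CPM in the BTPRZ-T tumours. Here too N replicate 2 lay within the BT-T range, and the other 3 N libraries below it, while BTPRZ-T reached from the N range into that of BT-T. The log2 fold change was 1.20 ± 0.51 in BT-T (edgeR adjusted p = 0.174). The value for BTPRZ-T was 0.73 ± 0.51 (adjusted p = 0.423). Without N replicate 2 both were called, at 1.93 (edgeR adjusted p = 0.00844) and 1.46 (adjusted p = 0.0170). With the length trend removed the value in BT-T was called (1.58, edgeR adjusted p = 0.0170). Of 5 tested lymphatic endothelial markers, none rose and 2 fell in BTPRZ-T, beside 6.18% of all genes called lower, and none was called in BT-T. Their summed level, with the unread Ccl21a, was 51.0 to 118 CPM in normal colon, 66.1 to 127 among BT-T and 17.5 to 61.7 among BTPRZ-T libraries.

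All lysyl oxidase genes, 2 members and 3 relatives, rose in both tumour groups. Lox (chromosome 18, 52516067 to 52529867, minus strand), the founding lysyl oxidase, stood at 4.202, 38.2, 6.38 and 5.74 CPM in N replicates 1 to 4, at 264, 398, 351 and 332 CPM in the BT-T tumours and at 125, 138, 46.1 and 299 CPM in the BTPRZ-T tumours. No tumour library overlapped N, although N replicate 2 was close to BTPRZ-T replicate 3. Lox rose 24.7-fold in BT-T (95% interval 7.59 to 80.5, log2 fold change 4.63 ± 0.78, edgeR adjusted p = 0.00351) and 11.2-fold in BTPRZ-T (95% interval 3.64 to 34.2, 3.48 ± 0.74, edgeR adjusted p = 0.0104). It had the largest change of the 10 genes in both comparisons, above 99.04% and 98.1% of all genes tested. Without N replicate 2 the log2 fold changes were 5.95 and 4.80 (edgeR adjusted p = 0.000176 and 0.000172). When the fit held no BT-T library, Lox was not called (edgeR adjusted p = 0.0548).

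Loxl2 (chromosome 14, 69609068 to 69695834, plus strand), a lysyl oxidase with scavenger receptor domains, stood at 51.0, 51.8, 85.4 and 71.2 CPM in N replicates 1 to 4, at 199, 218, 232 and 204 CPM in the BT-T tumours and at 141, 108, 91.7 and 214 CPM in the BTPRZ-T tumours. It had the narrowest spread in BT-T of the 10 genes, with a coefficient of variation of 6.89%, and every tumour library lay above every N library. Loxl2 rose 3.29-fold in BT-T (95% interval 2.14 to 5.05, log2 fold change 1.72 ± 0.29, edgeR adjusted p = 0.00310) and 2.13-fold in BTPRZ-T (95% interval 1.40 to 3.26, 1.09 ± 0.28, edgeR adjusted p = 0.0251). The call in BTPRZ-T was lost without N replicate 1 (edgeR adjusted p = 0.0807) and without BTPRZ-T replicate 4 (adjusted p = 0.0528). It was also lost when the fit held no BT-T library (edgeR adjusted p = 0.110) and in the test against a fold of 1.5 (adjusted p = 0.123). Loxl1, Loxl3 and Loxl4, the other lysyl oxidase genes, all rose in both tumour groups. In BT-T the log2 fold change of Loxl1 was 3.01 ± 0.56, adjusted p = 0.00594, that of Loxl3 2.92 ± 0.73, adjusted p = 0.0275 and that of Loxl4 1.98 ± 0.30, adjusted p = 0.00208 (edgeR). In BTPRZ-T the call for Loxl1 was close to the threshold (1.78 ± 0.54, adjusted p = 0.0499, edgeR). The BTPRZ-T libraries spread widely, from 15.5 to 158 CPM for Loxl1 and from 4.08 to 85.4 CPM for Loxl3. Both reached into the range of N (13.7 to 26.0 and 3.99 to 6.62 CPM).

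Per kilobase, Lox stood at 0.0924, 0.827, 0.0837 and 0.0903 times Loxl2 in N replicates 1 to 4, 1.49, 2.05, 1.70 and 1.83 times in BT-T and 0.995, 1.43, 0.564 and 1.57 times in BTPRZ-T. Thus Loxl2 was the more abundant of the pair in every N library, and Lox in every BT-T library. The mean log2 ratio was -2.69 ± 1.61 in normal colon, 0.81 ± 0.19 in BT-T and 0.084 ± 0.67 in BTPRZ-T (SD, n = 4). The exact permutation p was 0.0286 for BT-T against N and 0.0571 for BTPRZ-T against N and between the tumour groups (adjusted p 0.0571 and 0.0686 over the 6 ratio tests).

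The secreted matrix proteins rose in BT-T, and none was called in BTPRZ-T. Fn1 (chromosome 1, 71585520 to 71653200, minus strand), which encodes fibronectin, the fibre that cells grip through integrins, stood at 212, 635, 695 and 943 CPM in N replicates 1 to 4, at 1973, 4984, 3644 and 2479 CPM in the BT-T tumours and at 877, 1131, 629.9 and 2667 CPM in the BTPRZ-T tumours. BT-T did not overlap N. BTPRZ-T replicates 1 and 3 lay within the N range, replicate 2 between N and BT-T, and replicate 4 within BT-T. Fn1 rose from 621 ± 304 to 3270.1 ± 1339.9 CPM in BT-T, or 5.27-fold (95% interval 2.29 to 12.1, log2 fold change 2.397 ± 0.55, edgeR adjusted p = 0.0189). In BTPRZ-T the log2 fold change was 1.09 ± 0.53 (edgeR adjusted p = 0.223). The call in BT-T was lost without BT-T replicate 2 (edgeR adjusted p = 0.0655) or 3 (adjusted p = 0.0504), and with the trend on transcript length removed (1.76, adjusted p = 0.0933). Of 9 fibronectin receptor and assembly genes, 1 rose in BT-T, Itgb5 (1.47 ± 0.36, adjusted p = 0.0263, edgeR), and 2 fell in BTPRZ-T. Of all genes tested, 5.67% were called higher in BT-T and 6.18% lower in BTPRZ-T.

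Sparc (chromosome 11, 55394500 to 55423183, minus strand), a collagen-binding protein that aids fibre assembly, stood at 259, 943, 332 and 465 CPM in N replicates 1 to 4, at 2437, 2264, 2230.2 and 2929 CPM in the BT-T tumours and at 1989.7, 1132, 499.8 and 2961 CPM in the BTPRZ-T tumours. The BT-T libraries were alike and lay far above N, and BTPRZ-T ran from within the N range to just above the highest BT-T library. Sparc rose 4.93-fold in BT-T (95% interval 2.199 to 11.1, log2 fold change 2.30 ± 0.54, edgeR adjusted p = 0.0199), and that call was lost without 1 of N replicate 1, N replicate 3 and BT-T replicate 4 (adjusted p 0.0619, 0.0578 and 0.0539 in turn). In BTPRZ-T its log2 fold change of 1.72 ± 0.53 was just short of a call (edgeR adjusted p = 0.0527). It was called without N replicate 2 (2.22, edgeR adjusted p = 0.00578) or BTPRZ-T replicate 3 (2.02, adjusted p = 0.0191), by DESeq2 (adjusted p = 0.00861) and with the length trend removed (adjusted p = 0.0199).

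Postn (chromosome 3, 54361109 to 54391037, plus strand), which encodes periostin, a matrix protein of fibroblasts in healing and tumour tissue, stood at 195, 178, 189 and 247 CPM in N replicates 1 to 4, at 486, 623, 408 and 598 CPM in the BT-T tumours and at 195, 182, 66.3 and 329 CPM in the BTPRZ-T tumours. Every BT-T library lay above every N library and above every BTPRZ-T library, while BTPRZ-T reached both below and above the range of N. Postn rose 2.62-fold in BT-T (95% interval 1.47 to 4.66, log2 fold change 1.39 ± 0.38, edgeR adjusted p = 0.0425). This call was close to the threshold: it was lost without N replicates 1, 3 or 4, any BT-T library, or BTPRZ-T replicates 1 or 2 (edgeR adjusted p 0.0565 to 0.123). It was also lost with the length trend removed (1.09, adjusted p = 0.109) and in edgeR's test against a fold of 1.5 (adjusted p = 0.131). In BTPRZ-T Postn stood at 193 ± 107 CPM beside 202 ± 30.9 in N, a log2 fold change of -0.068 ± 0.38 (edgeR adjusted p = 0.945) with an interval of the fold of 0.542 to 1.68. The sign of that small difference turned with upper quartile factors, with the length trend removed, and without N replicate 4 or BTPRZ-T replicate 3.

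The tumour groups were compared with each other to ask what accompanied the added loss of Rnf43, Znrf3 and p16 Ink4a. Pdgfra, Pdgfrb and Postn were lower in every BTPRZ-T library than in every BT-T library, as were 12.7% of all genes tested. Their log2 fold changes were -1.22 ± 0.36, -1.14 ± 0.33 and -1.45 ± 0.38, with edgeR adjusted p of 0.117, 0.114 and 0.0952, so none was called. Fn1 (-1.30 ± 0.53) and Loxl2 (-0.62 ± 0.28) also had an unadjusted p under 0.05, which makes 5 of 10 genes, beside 2564 of 14860 genes tested. Thy1 had the smallest difference, -0.23 ± 0.60 (edgeR adjusted p = 0.860, interval of the fold 0.348 to 2.10), and it turned to 0.13 without BTPRZ-T replicate 3. DESeq2 called 3 members lower in BTPRZ-T, beside 6.18% of all genes it tested. Limma voom called 0, beside 1.28%, and voom with sample quality weights 10, beside 27.6%. The fit by edgeR without N replicate 2 also called 3 members, beside 8.23% of all genes: Pdgfra (adjusted p = 0.0177), Pdgfrb (0.00808) and Postn (0.0211). Without BTPRZ-T replicate 4 edgeR called 2.21% of all genes lower and, of the members, Postn alone (-1.88, adjusted p = 0.0349). The fitted differences of Fap (-2.19), Thy1 (-1.19), Lox (-1.74) and Fn1 (-1.93) were over 1.5 times larger as folds there, and not called. With the length trend removed the difference of Fn1 was smaller, at -0.67 (edgeR adjusted p = 0.589). No member was called lower in that fit, beside 1.02% of all genes. Over all alternatives other than leaving out 1 library, the smallest difference of each gene was -0.80 for Pdgfra, -0.81 for Pdgfrb and -0.26 for Loxl2. It was -0.17 for Thy1, -0.43 for Pdpn, -0.53 for Sparc and -0.59 for Fap. For Fn1, Lox and Postn it was -0.67, -0.86 and -1.09.

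BTPRZ-T libraries differed more among themselves than BT-T libraries did. The ratio of the highest to the lowest library was 15.0 for Thy1, 11.9 for Fap, 6.48 for Lox and 5.92 for Sparc in BTPRZ-T, against 2.10, 1.43, 1.51 and 1.31 in BT-T. BTPRZ-T replicate 4 was the highest of its group for 9 members and BTPRZ-T replicate 3 the lowest for 8, Pdgfra and Pdgfrb being the exceptions. Pdgfra was highest in BTPRZ-T replicate 3. Markers of other cell types moved with this order. The summed level of 10 epithelial markers was 17082 CPM in BTPRZ-T replicate 3 and 8388 in replicate 4. For 10 macrophage markers it was 234.6 and 1468 CPM, and for 16 general fibroblast markers 509 and 2349 CPM. Their part in the member values was not tested.

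Levels between genes were compared per kilobase of the longest transcript. Sparc was the most abundant in every group, at 217 ± 134 CPM per kilobase in normal colon, 1072 ± 140.0 in BT-T and 715 ± 465 in BTPRZ-T. Fn1 came next, at 74.7 ± 36.5, 393 ± 161 and 159.5 ± 110.3, and in BT-T all libraries of Sparc lay above all of Fn1. Fap was the lowest in every group, at 1.78 ± 1.97 in N and 4.87 ± 0.704 in BT-T. In N, Postn ranked next at 38.7 ± 5.91, and Loxl2, Thy1, Pdgfra, Pdgfrb, Pdpn and Lox followed with means of 12.2 to 2.87, where neighbours overlapped in their ranges. In BT-T, Postn (101 ± 19.2), Thy1 (78.0 ± 26.4) and Lox (70.9 ± 11.7) overlapped as neighbours, and so did Loxl2 (40.1 ± 2.77) and Pdgfrb (33.7 ± 7.38). In BTPRZ-T the ranges of all neighbours in the order overlapped. Lox ranked 9 of 10 in N and 5 of 10 in both tumour groups.

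Set against 16 general fibroblast markers, Lox was the member whose tumour levels stood furthest from normal colon. The summed level of these markers, such as Dcn, was 452 to 831 CPM in normal colon, 2323 to 3712 among BT-T and 509 to 2349 among BTPRZ-T libraries. As a percent of that sum in the same library, Lox stood at 0.703 to 4.60% in normal colon, 9.40 to 15.1% among BT-T and 9.06 to 15.4% among BTPRZ-T libraries, so neither tumour group overlapped N. Thy1 stood at 2.09 to 3.56%, 3.43 to 5.05% and 3.65 to 11.8%, and BTPRZ-T alone did not overlap N. Postn lay lower in both tumour groups than in N on this scale, without overlap, at 21.4 to 43.1% in normal colon, 16.8 to 19.7% among BT-T and 13.03 to 20.3% among BTPRZ-T libraries. Fn1 (46.9 to 116%, 70.3 to 157% and 66.2 to 126%) and Fap (0.212 to 1.62%, 0.399 to 0.588% and 0.302 to 1.12%) overlapped in all 3 groups. These shares are a description with no test, and how many of all genes lack overlap on this scale was not counted. The sum itself was higher in every BT-T library than in every N library, so a gene that rose less than the sum lies lower on this scale.

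The genes of most similar pattern were sought by the Pearson r of log2 CPM with the mean of the members' standardised values over the 12 libraries, which share group, depth and composition. The 6 nearest were Olfml3 (r = 0.987), Fbn1 (0.985), Col5a2 (0.985), Leprel2 (0.984), Olfml2b (0.984) and Cdh11 (0.982). Fbn1 encodes fibrillin, Col5a2 a chain of collagen V and Cdh11 a cadherin of mesenchymal cells. Col5a2 stood at 76.5 ± 16.8 CPM in normal colon, 722 ± 144 in BT-T and 265 ± 135 in BTPRZ-T. Among the members, the closest pair was Lox and Sparc (r = 0.951) and the least alike Pdgfra and Pdpn (r = 0.195), with a median of 0.737 over 45 pairs. After the mean of each group was subtracted the median was 0.544, and 10 pairs were negative, the lowest being Pdgfrb and Pdpn (r = -0.591).

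Other matrix and fibroblast genes moved with the members in BT-T. Of 10 collagen genes of the fibrillar and collagen VI families, 9 rose in BT-T and 6 in BTPRZ-T (median log2 fold change 2.84 and 1.45). Of 18 other matrix glycoprotein genes, 11 rose in BT-T and none fell, and in BTPRZ-T 4 rose and 2 fell. They included elastin, Eln (3.99 ± 0.52, adjusted p = 0.000852, edgeR), a substrate of lysyl oxidases, and Thbs2 (4.24 ± 0.58, adjusted p = 0.00119, edgeR). Of 16 general fibroblast markers, 8 rose in BT-T and 3 in BTPRZ-T, among them the proteoglycan Dcn (in BT-T 2.42 ± 0.34, adjusted p = 0.00137, edgeR). Of 12 markers of tumour myofibroblasts, 5 rose in BT-T, and 6 rose and 1 fell in BTPRZ-T. Lrrc15, a marker of matrix-making tumour fibroblasts, had 10 reads in normal colon, 1115 in BT-T and 386 in BTPRZ-T (6.17 ± 0.88, adjusted p = 0.00141 in BT-T, edgeR). Acta2, of the same list, stood at 1970 ± 626, 1219 ± 252 and 583 ± 374 CPM and fell in BTPRZ-T (-1.76 ± 0.48, adjusted p = 0.0324, edgeR). Tagln stood at 2184 ± 2480, 760 ± 205 and 607 ± 504 CPM and was not called. The list summed to 2141 to 8809 CPM in normal colon, 2086 to 2988 among BT-T and 433 to 2996 among BTPRZ-T libraries. Acta2 and Tagln had the highest means of the list in every group and held most of these sums. The sums therefore say little about the 5 genes that rose in BT-T. Of 8 markers of the Pdgfra-high cells under the epithelium, 2 rose in BT-T, F3 and Frzb, and the list median was 0.085. Of 7 markers of Pdgfra-low trophocyte-like cells, 3 rose in BT-T, Grem1, C3 and Sfrp1, and none was called in BTPRZ-T.

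Markers of other cells that make these proteins were read beside the members. Of 8 pericyte markers, Abcc9 rose (2.00 ± 0.41, adjusted p = 0.0103, edgeR) and Rgs5 fell (-0.93 ± 0.26, adjusted p = 0.0482, edgeR) in BT-T. In BTPRZ-T Rgs5 alone was called, and it fell (-2.17 ± 0.27, adjusted p = 0.000609, edgeR). The summed level was 244 to 468 CPM in normal colon, 393 to 634 among BT-T and 148 to 315 among BTPRZ-T libraries. Of 10 smooth muscle markers, 1 fell in BT-T and 8 did so in BTPRZ-T, beside 2.9% and 6.18% of all genes called lower. Their sums were 5325 to 10859.8 CPM in normal colon, 2344 to 3751 among BT-T and 258 to 2817 among BTPRZ-T libraries. Every N library thus had a higher muscle sum than every tumour library. Of 10 blood endothelial markers, 4 rose in BT-T and 2 did so in BTPRZ-T, with sums of 171 to 342, 497 to 889 and 351 to 693 CPM. Of 10 macrophage markers, 7 and 6 rose, with sums of 75.8 to 226, 562 to 909.8 and 234.6 to 1468 CPM. Of 10 epithelial markers, 1 rose in each tumour group, beside 5.67% and 5.66% of all genes called higher. Their sums were 10934 to 13309, 9756 to 11545 and 8388 to 17082 CPM. The part of each of these cell types in the member values was not tested.

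**Figure D4:**
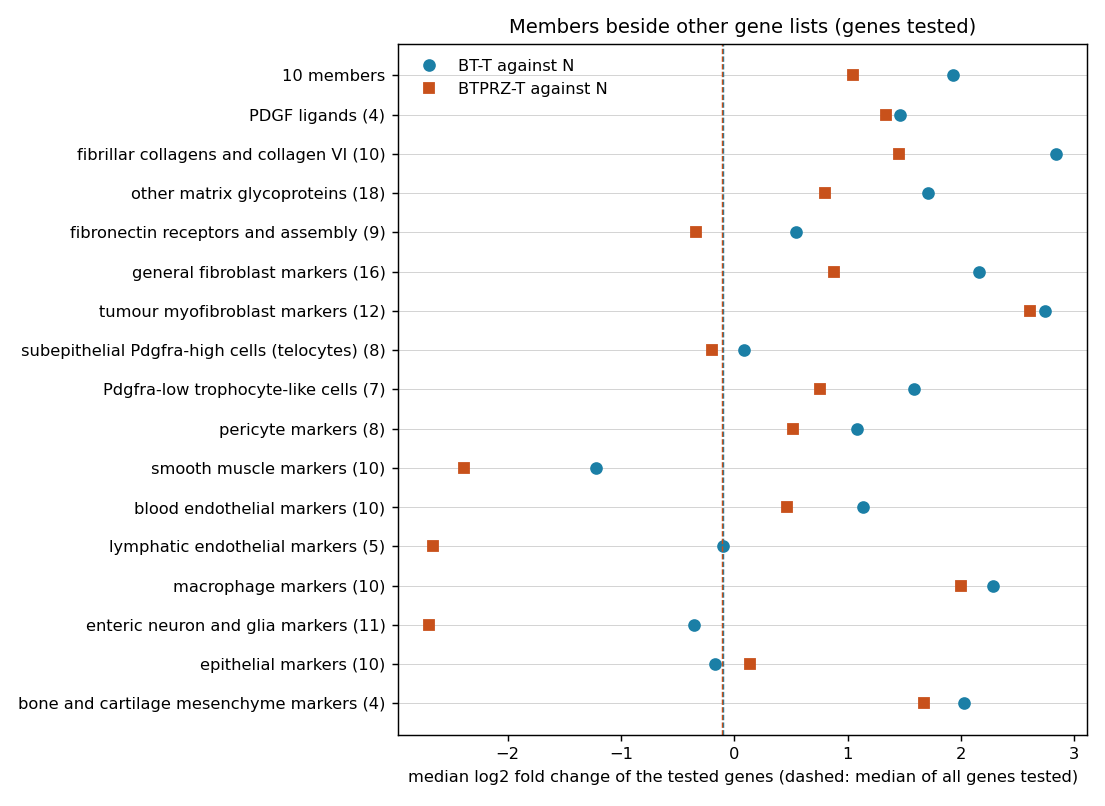
Horizontal axis, median log2 fold change of the tested genes of each list against N; circles are BT-T, squares BTPRZ-T, and dashed lines the median of all genes tested. The 10 members lie at 1.93 and 1.05, near general fibroblast (2.16 and 0.88) and other matrix glycoprotein (1.71 and 0.80) lists. Macrophage (2.29 and 2.00) and bone and cartilage mesenchyme lists (2.02 and 1.67, 4 genes tested) lie near too. Lower lie the lists of fibronectin receptors (0.55 and -0.34), Pdgfra-high cells under the epithelium (0.085 and -0.20), smooth muscle, lymphatic vessels and neurons.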

How the data were processed

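Poly(A) RNA of 12 samples was sequenced as single reads of 100 bases from a stranded kit, per the labels' protocols. The deposited counts are raw, whole numbers of reads per gene, not normalized by the authors, in the layout of STAR's gene counts. The submitters' processing notes name mm10, bcl2fastq 2.20, STAR 2.4.2a, edgeR 3.16.5, limma and HTSeq without their steps, and an annotation was not given in the sources used here. Reads at several loci are listed at 0 in every library. The stranded column with more reads was used (the other held 0.819 to 0.994% as many), and rows that name no gene were left out; reads outside genes were 12.3 to 17.9% of the sum of gene, ambiguous and outside reads.

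Genes were filtered by filterByExpr, scaled by TMM and fitted over all 12 libraries with 1 mean per group (edgeR 4.0.16, R 4.3.3; robust glmQLFit and glmQLFTest), with Benjamini-Hochberg adjustment over 14860 genes. The common biological coefficient of variation was 0.501. Same-numbered replicates share only a number. The pipeline was tested on simulated data. Alternatives used RLE and upper quartile factors, no filter, 2 CPM in 4 libraries, DESeq2 1.42.0, voom (limma 3.58.1) with and without quality weights, the unstranded column, the 2 groups alone, a replicate term, a test against a fold of 1.5, a length correction (longest GENCODE M21 transcript), 3 libraries left out together and each library in turn. Context genes named are the 3 of lowest adjusted p per list in BT-T against N and markers with no read. Cd3e, Pdgfa, Acta2 and Tagln are named too, chosen after their values were seen. The members, lists and tests were chosen with earlier results of these data known.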

Additional observations from a re-analysis of the deposited data

Results flagged for a closer look

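In 3 of 30 sets of 4 libraries (10 genes in 3 groups), 1 library lay far from the other 3 by Dixon's gap test, which chance alone does in about 1 of 20 sets. Pdgfrb stood at 123 CPM in BT-T replicate 1, below 199 to 209.7 in the other BT-T libraries. Fap stood at 26.3 CPM in BTPRZ-T replicate 4, above 2.203 to 4.00 in the other BTPRZ-T libraries. Lox stood at 38.2 CPM in N replicate 2, above 4.202 to 6.38 in the other N libraries.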

How the results depend on the processing

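With 4 libraries a group, the number of members called moved with 1 library or tool, while the direction in BT-T against N held for all 10 under every alternative run. Of 747 member values under 25 alternatives, 651 kept their direction and side of the threshold, 59 gained a call, 26 lost one and 11 changed sign, none of these called. For BT-T against N, 5 to 8 members were called higher when 1 library was left out. For BTPRZ-T against N, beside 3, the count was 2 to 6 when 1 library was left out, 5 with DESeq2, 7 with voom and quality weights, 0 with only the 2 groups and 5 with the length trend removed. For BTPRZ-T against BT-T, beside 0, the count called lower was 0 to 3 when 1 library was left out (3 without N replicate 2), 3 with DESeq2, 10 with voom and quality weights, 3 with only the 2 groups and 10 without the 3 libraries that stand apart. The cause was not tested. DESeq2 gave no adjusted p for Fap.

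Sign changes against N in BTPRZ-T were those of Pdgfra (0.032 with upper quartile factors, 0.082 with the length trend removed, -0.31 to 0.25 with 1 library left out), Postn (0.037, 0.0028 and -0.44 to 0.22) and Fap (-0.69 to 1.95 with 1 left out). Between the tumour groups Thy1 ran from -1.19 to 0.13 with 1 library left out, and from -1.67 to -0.17 under the other alternatives. The labels do not say that replicate numbers pair the samples, and deviations of same-numbered libraries correlated at -0.297 to 0.315, with 3 of 12 libraries closest to their own number. With the replicate block 7, 2 and 0 members were called, so it ended 1 call, Loxl2 in BTPRZ-T (adjusted p = 0.0567).

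Counts over all genes moved too. Called higher and lower in BT-T against N were 843 and 431, 469 to 1172 and 155 to 858 with 1 library left out, 1353 and 1041 with DESeq2, 2989 and 3167 with voom and quality weights, 702 and 243 with the block, 516 and 168 against a fold of 1.5, 2444 and 1915 without the 3 libraries and 998 and 769 with the length trend removed. In BTPRZ-T against N they were 841 and 919, 494 to 2496 and 582 to 2359 with 1 left out, and 1266 and 1782, 3980 and 4231, 598 and 562, 510 and 505, 2758 and 2553, and 1070 and 1341 in the same order, with 330 and 317 for the 2 groups alone. Between the tumour groups they were 23 and 89, 0 to 1476 and 0 to 1238 with 1 left out, and 331 and 886, 3640 and 4094, 1 and 0, 1 and 7, 1477 and 2246, and 73 and 145 in that order, with 751 and 817 for the 2 groups alone, 76 and 190 with voom and 12 and 80 with no filter. Depth limits Fap most, at 22 to 199 reads per N library.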
